A study of Homo sapiens with 4 samples.

Results

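Depletion of SNRNP40 in LV-M100 breast cancer cells left 81 genes at less than 1/2 of their control level when the FPKM of every transcript of a gene symbol was added up (FPKM counts sequenced fragments per length of transcript and relative to all mapped fragments). These 81 genes were chosen by the same summed values that are described here: a mean of the siSNRNP40 and siControl sums of at least 1, both sums above 0, and a log2 ratio of siSNRNP40 over siControl below -1. Of 23217 gene symbols listed, 12334 passed the filter on level, and the 81 genes are 0.657% of them. The opposite limit, a log2 ratio above 1, was passed by 100 genes, or 0.811%. Which direction held more genes depended on the scaling between conditions, since scaling by the upper quartile gave 104 lowered and 76 raised genes. Because the ratio itself selected the genes, its size is a description, and no test was made of it.

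SNRNP40 is a WD-repeat protein of the U5 small nuclear ribonucleoprotein, a building block of the spliceosome, which removes introns from precursor RNA and joins the exons. Many small RNAs are themselves cut from introns that splicing has removed. C/D box and H/ACA box small nucleolar RNAs (snoRNAs) guide chemical modification of ribosomal and other RNAs, and several microRNA hairpins also lie in introns.

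The cells were LV-M100, 1 clonal subline with low cell-to-cell variability derived from the human breast cancer line MDA-MB-231, so a single clone stands for the line. Cells grown in DMEM were transfected with siRNA by Lipofectamine 2000, and total RNA was taken 48 h later, treated with DNase I, freed of ribosomal RNA with Ribo-Zero Gold and sequenced as ScriptSeq v2 libraries. The siControl libraries were made from cells given NC1 (IDT) in replicate 1 or BLOCK-iT Fluorescent Oligo in replicate 2, and the siSNRNP40 libraries from cells given siSNRNP40 #1 in replicate 1 or siSNRNP40 #2 in replicate 2. The 2 libraries of each condition were pooled by the authors into 1 FPKM per transcript, so no value has a replicate error, the siRNAs cannot be told apart, and the depth of the libraries is unknown.

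The total FPKM was 516056 in siControl and 517152 in siSNRNP40, and the median log2 ratio of all genes that passed the filter was 0.0034. Most mesenchymal markers of the line were expressed, with VIM at 750 and 733 FPKM in siControl and siSNRNP40 and CD44 at 116 and 141. In the same order, AXL was at 125 and 115 FPKM, CAV1 at 285 and 198, MSN at 138 and 131, and ZEB1 at 29.1 and 25.02. SPARC was the exception, at 0.240 and 0.218 FPKM. Of the epithelial markers, KRT19 was at 196 and 173 FPKM, EPCAM at 10.6 and 10.0, and CDH1 under 0.1 in both conditions. The hormone receptors ESR1 and PGR were under 0.02 FPKM in both conditions, and PTPRC, CDH5 and ALB, markers of leukocytes, endothelium and liver, were listed at 0, while PECAM1, another endothelial marker, was at 0.922 and 1.202 FPKM. In bulk RNA of this kind, fewer cells that express a gene and less RNA per cell cannot be told apart.

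The siRNAs are shown first, since SNRNP40 is the intended target among the 81 genes. In the lines below the guide strand is given as the reverse complement of the 18-base strand printed in the labels, and capitals mark guide bases 2 to 8, the seed. Both printed strands occurred once in the canonical SNRNP40 transcript, within its coding sequence on the minus strand of chromosome 1 in GRCh37, siSNRNP40 #1 in exon 5 of 10 at chr1:31754224-31754241 and siSNRNP40 #2 in exon 2 at chr1:31766067-31766084.
siSNRNP40 #1 guide: gAUAUCAUugucuauucc
siSNRNP40 #2 guide: uAUCAGUCggucaaaucc

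SNRNP40 itself (annotated in GRCh37 at chr1:31732415-31769635) went from 40.4 FPKM with control siRNA to 6.12 FPKM after depletion, a log2 ratio of -2.72 or a decrease of 84.9%. It had the second lowest ratio of the 12334 genes. The other components of U5 and of the tri-snRNP did not share this: of 15 listed genes, SNRNP40 was the only one past the limit, 5 had a ratio below 0, and the median log2 ratio was 0.05.

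**Figure D1:**
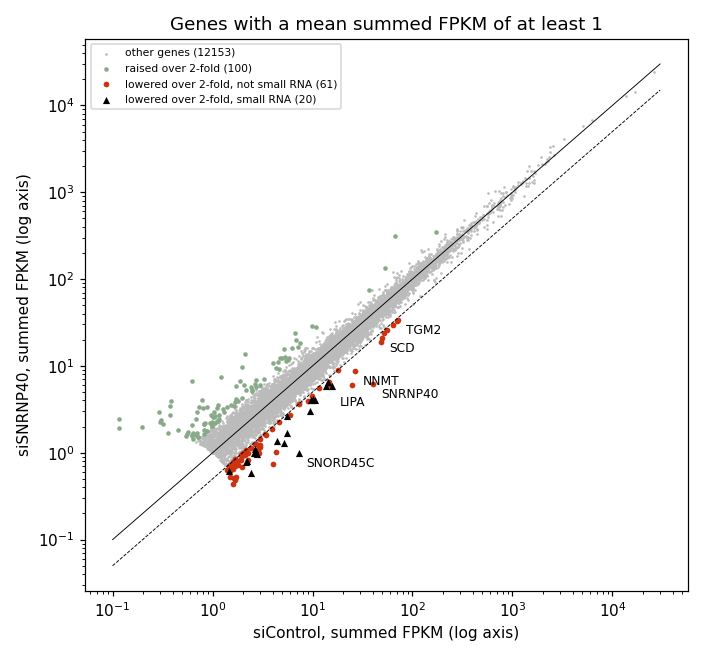
Summed FPKM of each of the 12334 genes with control siRNA (horizontal log axis) and siSNRNP40 (vertical log axis); the solid line marks equal values and the dashed line a 2-fold decrease. The 81 lowered genes (red circles, with 20 small RNA genes as black triangles) lie below the dashed line by construction, and 41 of them have a mean under 2 FPKM.

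The 81 genes were mostly of low expression. Their control values ran from 1.40 to 71.6 FPKM with a median of 2.89, and their values after depletion had a median of 1.097. All 12334 genes had a control median of 10.7 FPKM. The mean of the conditions was under 2 FPKM for 41 of the 81 genes (50.6%) and for 11.1% of all genes, and at least 10 FPKM for 15 of the 81 (18.5%) and for 51.8% of all genes.

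Read the other way, the share of genes lowered over 2-fold was 3.004% at a mean of 1 to 2 FPKM, 0.664% at 2 to 5, 0.416% at 5 to 10, 0.276% at 10 to 50 and 0.119% at 50 and over. The genes raised over 2-fold followed a similar course, with 3.37% in the lowest class and 0.237% in the highest. With neither counts nor replicate values, the part of sampling noise in the low classes was not tested.

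**Figure D2:**
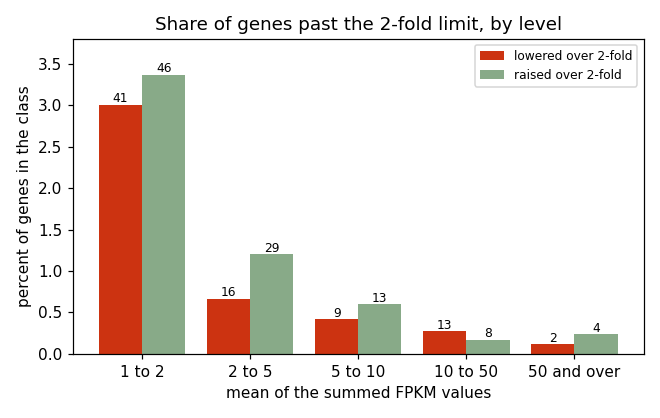
Percent of genes lowered (red) or raised (green) over 2-fold in 5 classes of mean summed FPKM, with the number of genes above each bar. Both shares were highest at 1 to 2 FPKM, where 41 genes were lowered and 46 raised, and 0.119% and 0.237% at 50 FPKM and over.

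The log2 ratios ran from -2.86 to -1.005 with a median of -1.23. Only 6 genes were below -2: SNORD45C, SNRNP40, the read-through gene INO80B-WBP1, the read-through gene ZHX1-C8ORF76, SNORA15 and LIPA. Near the limit, 37 genes lay between -1.2 and -1. The 5 genes just inside it were FLJ22447 (-1.03), PRICKLE4 (-1.02), ABCC6 (-1.01), FAM86FP (-1.01) and MXI1 (-1.005), and the 5 just outside it were UCN2, ANXA9, CXorf57, PPP1R2P3 and MNS1, with log2 ratios from -0.998 to -0.984. Of the 81 genes, 9 had a mean of 1 to 1.1 FPKM, just above the limit on level.

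**Figure D3:**
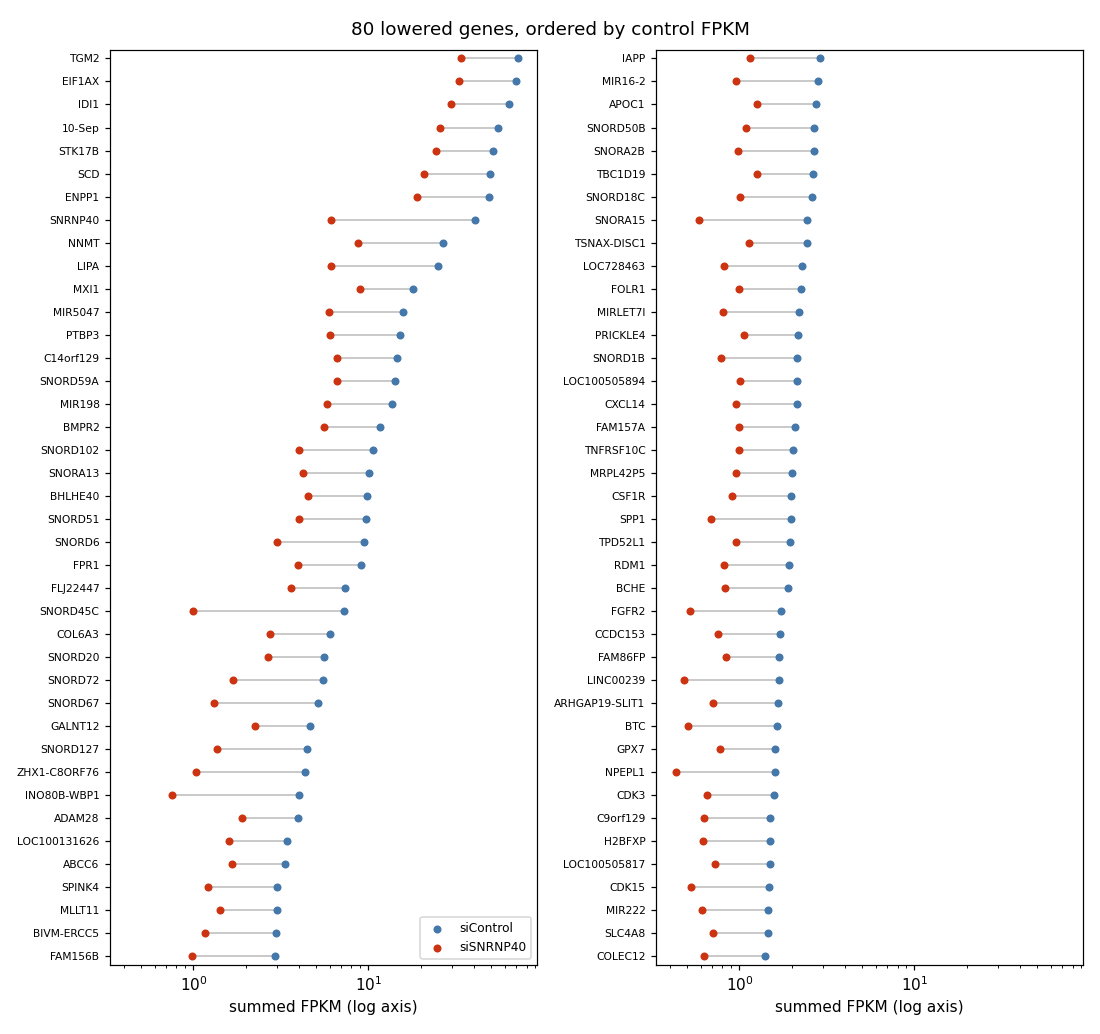
Summed FPKM of 80 of the 81 lowered genes with control siRNA (blue) and siSNRNP40 (red), ordered by control value on a log axis. TGM2 has the highest control value, 71.6 FPKM, and COLEC12 the lowest, 1.40 FPKM; the widest gaps are those of SNORD45C and SNRNP40.

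Small noncoding RNAs made up 20 of the 81 genes (24.7%), against 29 of the 100 raised genes (29.0%) and 303 of all 12334 (2.46%). They were 12 C/D box snoRNAs, 3 H/ACA box snoRNAs and 5 microRNA hairpins. The families differed in their balance. Of 127 C/D box genes (SNORD) that passed the filter, 12 were lowered and 1 was raised, 78 had a ratio below 0, and the median log2 ratio was -0.18. Of 88 H/ACA box genes (SNORA), 3 were lowered and 5 raised, with a median of 0.11. The 23 SCARNA genes, guides of the small nuclear RNAs, had 0 lowered and 3 raised, and the 56 microRNA hairpins had 5 lowered and 19 raised with a median of 0.30. These differences between families were not tested, since the ratio that chose the genes is the only contrast. Of all 12334 genes, 0.657% were lowered and 0.811% raised. By level, 8 of 34 small RNA genes at a mean of 1 to 2 FPKM were lowered and 13 raised. At 2 to 5 FPKM 5 of 59 were lowered and 13 raised, and at 5 to 10 FPKM 5 of 34 and 1. At 10 to 50 FPKM 2 of 81 were lowered and 1 raised. At 50 FPKM and over 0 of 95 were lowered and 1 raised.

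The sequences of the 4 C/D box genes with the lowest ratios, of SNORD6 and of the H/ACA box gene with the lowest ratio are printed because they carry the widest falls among the small RNAs. They come from the GENCODE annotation on GRCh37. Capitals mark the box motifs, ATGATGA or GTGATGA (box C, searched in the opening 25 bases) and CTGA (box D, searched in the closing 20 bases, its last match) in C/D box genes and ACA near the end in the H/ACA box gene, on the transcribed strand alone.
SNORD45C: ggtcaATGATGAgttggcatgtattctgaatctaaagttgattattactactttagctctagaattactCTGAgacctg
SNORD67: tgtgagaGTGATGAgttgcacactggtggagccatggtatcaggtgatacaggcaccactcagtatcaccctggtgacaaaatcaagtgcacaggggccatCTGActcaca
SNORD127: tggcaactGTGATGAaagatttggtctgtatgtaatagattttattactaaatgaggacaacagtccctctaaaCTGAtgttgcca
SNORD72: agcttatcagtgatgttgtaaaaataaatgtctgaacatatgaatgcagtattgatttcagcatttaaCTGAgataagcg
SNORD6: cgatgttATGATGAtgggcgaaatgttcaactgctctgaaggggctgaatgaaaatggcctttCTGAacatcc
SNORA15: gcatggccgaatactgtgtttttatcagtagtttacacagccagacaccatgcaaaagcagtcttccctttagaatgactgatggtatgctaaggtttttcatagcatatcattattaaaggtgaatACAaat

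Of the 12 lowered C/D box genes, 11 had a sequence in the annotation, 10 of these held box C as written and 11 held box D. Among 99 C/D box genes that passed the filter and had a sequence, 58.6% held box C and 98.0% box D under the same search. SNORD72 was the member without the box C letters in that window. The median length was 80 bases in both sets.

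SNORD45C (GRCh37 chr1:76252757-76252835) had the lowest ratio of all genes, with 7.25 FPKM in siControl and 0.999 in siSNRNP40, a log2 ratio of -2.86. It lies in an intron of RABGGTB, which encodes a subunit of a prenyl transferase and was at 79.9 and 84.0 FPKM. SNORD67 (chr11:46783939-46784049) was at 5.16 and 1.31 FPKM, a log2 ratio of -1.98, and its host CKAP5, a microtubule-binding protein, at 103 and 99.0. In each of these pairs the small RNA gene was low after depletion by the choice of genes. The host gene, not chosen by its ratio, kept its level to within 0.1 on the log2 scale.

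The other small RNA genes were chosen in the same way, and none of their hosts passed the limit. Of all genes, 0.657% passed it, and the hosts were not chosen by their ratio, so nothing is read from this count. SNORA15 (chr7:56128163-56128295) was at 2.42 FPKM in siControl and 0.586 in siSNRNP40, and its host CCT6A, a chaperonin subunit, at 226 and 214. SNORD72 (chr5:40832758-40832837) was at 5.51 and 1.69, and its host RPL37, a ribosomal protein, at 516 and 697. The RPL37 difference was the largest in the upward direction among the hosts, a log2 ratio of 0.43. SNORD127 (chr14:45580086-45580171) was at 4.46 and 1.36 FPKM while its host PRPF39, itself a splicing factor, was at 33.4 and 37.6. SNORD6 (chr11:93464668-93464740) was at 9.41 and 2.996 while TAF1D was at 54.7 and 59.0.

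Across the 20 small RNA genes a host was found in the table for 18, of which 15 held the small RNA in an intron of the canonical transcript. SNORD6 lay in TAF1D beyond the canonical transcript, and SNORD50B and MIR198 were placed in SNHG5 and FSTL1 only by a shared deposited locus. The 18 hosts had log2 ratios from -0.50 (RPL4, host of SNORD18C, 646 FPKM in siControl and 458 in siSNRNP40) to 0.43 with a median of 0.02, and 8 of them were below 0.

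**Figure D4:**
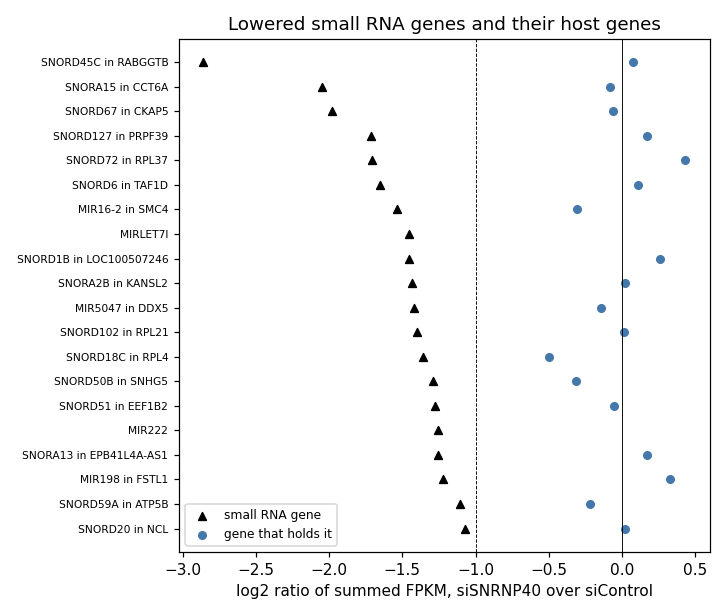
Log2 ratio of summed FPKM, siSNRNP40 over siControl, for the 20 lowered small RNA genes (black triangles) and for the 18 genes that hold them (blue circles); the dashed line marks the 2-fold limit. All triangles lie left of -1 by the choice of genes, and the hosts lie between -0.50 and 0.43.

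The remaining lowered snoRNAs, SNORD59A, SNORD102, SNORA13, SNORD51, SNORD20, SNORD50B, SNORA2B, SNORD18C and SNORD1B, had control values from 2.14 to 14.1 FPKM. SNORD59A, in the ATP synthase gene ATP5B, had the highest, 14.1 FPKM against 6.57 after depletion. SNORD102 in RPL21 was at 10.7 and 4.04, and SNORA13 in EPB41L4A-AS1 at 10.0 and 4.21. Each was at less than 1/2 of its control value, and their hosts had log2 ratios of -0.22, 0.01 and 0.17. The annotated lengths of the small RNA genes, 69 to 137 bases, can be shorter than a sequenced fragment, and how the authors' software scaled such genes was not tested here.

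The 5 microRNA hairpins are shown by 1 mature arm each, from RefSeq (GRCh38.p14), with the seed, bases 2 to 8, in capitals. The table lists hairpin genes, so these FPKM values are not levels of mature microRNA. The hairpins give 8 mature arms with 8 different seeds, so no seed was shared among them.
hsa-miR-16-5p: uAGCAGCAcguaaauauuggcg
hsa-let-7i-5p: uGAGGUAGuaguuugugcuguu
hsa-miR-222-3p: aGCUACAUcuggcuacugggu
hsa-miR-198: gGUCCAGAggggagauagguuc
hsa-miR-5047: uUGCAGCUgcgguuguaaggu

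MIR5047, in the RNA helicase gene DDX5, was at 15.8 FPKM in siControl and 5.92 in siSNRNP40, and DDX5 was at 203 and 184. MIR198, at the FSTL1 locus, was at 13.6 and 5.83, with FSTL1 at 50.3 and 63.3. These 2 hairpins had the highest levels of the 5, although the authors' comparison listed MIR198 as low in data. MIR16-2, in an intron of the condensin gene SMC4 (82.3 and 66.6 FPKM), was at 2.80 and 0.962, MIRLET7I at 2.20 and 0.802, and MIR222 at 1.46 and 0.613. No host gene was listed for MIRLET7I or MIR222.

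Read-through genes, annotated as a transcript that runs from 1 gene into its neighbour, made up 6 of the 81 lowered genes (7.41%), 7 of the 100 raised genes (7%) and 54 of all 12334 (0.438%). INO80B-WBP1 was at 4.02 FPKM in siControl and 0.751 in siSNRNP40, a log2 ratio of -2.42. Its parts were higher after depletion, INO80B, a subunit of a chromatin remodeller, at 9.66 and 12.8 and WBP1 at 8.07 and 13.4. Summed over all 3 symbols the locus had a log2 ratio of 0.31, opposite in sign to the read-through gene.

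The other read-through genes described here differed from INO80B-WBP1, since the sum of each with its parts had a log2 ratio below 0. In each of them the first-named part was lower after depletion and the second was higher. Some of these differences were small, with ERCC5 at 18.3 and 18.8 FPKM in siControl and siSNRNP40. SLIT1 was near 0, at 0.0089 and 0.051, and nothing is read from the shared direction. ZHX1-C8ORF76 was at 4.34 and 1.03 FPKM, and the sum of the read-through gene with both parts had a log2 ratio of -0.21. BIVM-ERCC5 was at 2.95 and 1.17, and its sum with BIVM and with the DNA repair gene ERCC5 had a log2 ratio of -0.13. TSNAX-DISC1 was at 2.42 and 1.14 with -0.12 for the sum, and ARHGAP19-SLIT1 at 1.66 and 0.710 with -0.74. None of these 5 loci was past the 2-fold limit as a sum. The largest decrease of a sum among them was at ARHGAP19-SLIT1, where ARHGAP19 was itself at 6.20 and 3.95 FPKM.

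Of the lowered genes, 2 were partners of a read-through gene that was higher. NPEPL1, an aminopeptidase-like gene, was at 1.59 FPKM in siControl and 0.432 in siSNRNP40, while STX16-NPEPL1 was at 2.61 and 4.30, and the sum had a log2 ratio of 0.17. CDK3, a cyclin-dependent kinase, was at 1.58 and 0.650 while TEN1-CDK3 was at 0.720 and 1.52, and the sum had a log2 ratio of -0.09. In both cases the 2 symbols share exons, and fragments in shared exons were divided between them by the authors' software.

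Overlap of this kind was common. Of the 81 genes, 35 (43.2%) shared their assembled locus with another symbol, against 42 of the 100 raised genes and 26.2% of all genes. All lowered small RNA genes except SNORD6, MIRLET7I and MIR222 are part of the count of 35, while their hosts are not. Conversely, 58 of the 81 (71.6%) had a single listed transcript, against 71 of the 100 raised genes and 57.2% of all genes.

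The genes of lipid metabolism among the 81 were LIPA, SCD, IDI1 and APOC1. LIPA encodes lysosomal acid lipase, which splits cholesteryl esters and triglycerides in the lysosome, and was at 24.9 FPKM in siControl and 6.09 in siSNRNP40, a log2 ratio of -2.03. SCD, the desaturase that makes monounsaturated fatty acids, was at 49.2 and 20.7 FPKM, a log2 ratio of -1.249. LIPA and SCD lie on chromosome 10 at chr10:90973329-91011532 and chr10:102106990-102124583 in GRCh37. IDI1, an isomerase of the isoprenoid steps of cholesterol synthesis, lies on the same chromosome at chr10:1085359-1095059 and was at 63.6 and 29.4 FPKM. APOC1, an apolipoprotein of lipoprotein particles, was at 2.73 and 1.25.

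Among their pathways, IDI1 was the only 1 of 25 genes of cholesterol synthesis and uptake past the limit, but 23 of the 25 had a ratio below 0 and the median log2 ratio was -0.38, where 6101 of all 12334 genes were below 0 and their median was 0.0034. The sterol genes nearest to the limit were MSMO1, a sterol oxidase, at 36.9 and 20.2 FPKM, and HSD17B7, at 10.5 and 6.37. PMVK and TM7SF2 had ratios above 0. In fatty acid synthesis and desaturation, SCD was past the limit, 10 of 13 genes had a ratio below 0 and the median was -0.21, with FADS2, a desaturase of polyunsaturated fatty acids, at 16.3 and 8.76. LIPA differed from its compartment: of 24 lysosomal genes it alone was past the limit, 9 were below 0 and the median was 0.06.

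Enzymes of other pathways included several of the most expressed members. TGM2, tissue transglutaminase, which cross-links proteins, had the highest control value of all 81 genes, 71.6 FPKM, and was at 33.8 after depletion. ENPP1, a cell-surface enzyme that hydrolyses extracellular nucleotides, was at 49.0 and 18.9, and NNMT, which methylates nicotinamide, at 26.7 and 8.77. The authors' table did not test ENPP1 or NNMT, although both were well above the median level. In all, 7 of the 81 genes had no transcript with a completed test in that comparison. The others were COLEC12, also not tested, FGFR2 and BIVM-ERCC5, listed as low in data or not tested, and MIR198 and FAM156B, listed as low in data. TGM2, ENPP1 and NNMT were at 1/2 of control or less, with log2 ratios of -1.08, -1.37 and -1.60. GALNT12, which starts mucin-type O-glycosylation, was at 4.63 and 2.24, the metalloprotease ADAM28 at 3.94 and 1.89, butyrylcholinesterase BCHE at 1.90 and 0.823, and the glutathione peroxidase GPX7 at 1.60 and 0.773.

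Regulators of transcription, translation, RNA and signalling formed a further group. They are described together with 10-Sep and C14orf129, which were not placed in that group. EIF1AX, a translation initiation factor that takes part in start codon selection, was at 69.6 FPKM in siControl and 33.1 in siSNRNP40. STK17B, a serine/threonine kinase of the death-associated family, was at 51.5 and 24.2. The gene listed under the date 10-Sep, whose locus at chr2:110300376-110371543 is that of the septin SEPTIN10, was at 55.2 and 25.7. These 3 genes were close to one another in level and in ratio, with log2 ratios from -1.10 to -1.07.

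MXI1, a partner of MAX that opposes MYC, was at 17.9 and 8.91 FPKM and is the member nearest to the limit. PTBP3, an RNA-binding protein of the polypyrimidine tract-binding family, was at 15.1 and 6.02, and BHLHE40, a transcriptional repressor, at 9.85 and 4.53. All 3 had a log2 ratio between -1.32 and -1.005. C14orf129 was at 14.5 and 6.59. MLLT11 was at 2.99 and 1.43, the cyclin-dependent kinase CDK15 at 1.48 and 0.532, and RDM1 at 1.93 and 0.819.

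Receptors and transporters were 9 of the 81 genes, and 6 of these had a mean under 2 FPKM. BMPR2, a receptor for bone morphogenetic proteins, had the highest level, 11.6 FPKM in siControl and 5.58 in siSNRNP40. FPR1, a receptor for formylated peptides known from neutrophils, was at 9.10 and 3.98. The receptor tyrosine kinases FGFR2 and CSF1R were at 1.73 and 0.519 and at 1.98 and 0.907. The others, the transporter ABCC6, the folate receptor FOLR1, the decoy receptor TNFRSF10C, the bicarbonate transporter SLC4A8 and the scavenger receptor COLEC12, had control values from 1.40 to 3.35 FPKM.

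Secreted and matrix proteins were all of low level. COL6A3, a chain of collagen VI, was at 6.02 FPKM in siControl and 2.74 in siSNRNP40, and was the only 1 of 21 matrix genes that passed the filter to be lowered. SPINK4, a protease inhibitor, was at 3.01 and 1.21, the amylin gene IAPP at 2.89 and 1.15, and the chemokine CXCL14 at 2.13 and 0.954. SPP1, which encodes osteopontin, was at 1.96 and 0.692, and BTC, an EGF receptor ligand, at 1.64 and 0.506. After depletion 3 of the 6 lowered genes of this group were under 1 FPKM.

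Genes grouped here as noncoding loci or pseudogenes, other than the small RNAs, were 9 of the 81, with control values from 1.49 to 7.36 FPKM. FLJ22447 had the highest, 7.36 against 3.62 after depletion, and LINC00239 the lowest ratio, with 1.67 and 0.485 FPKM. The others were LOC100131626, LOC728463, LOC100505894, MRPL42P5, FAM86FP, H2BFXP and LOC100505817. Among 502 long noncoding or unnamed loci that passed the filter, 5 were lowered and 7 raised, where 0.657% and 0.811% of all genes were, and nothing is read from these counts. The remaining lowered genes, FAM156B, TBC1D19, PRICKLE4, FAM157A, TPD52L1, CCDC153 and C9orf129, had control values from 1.504 to 2.94 FPKM. Of these, FAM157A and C9orf129 are also annotated as pseudogenes in GENCODE, though they were not grouped so here.

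Several lists held no lowered member, and beside the overall share of 0.657% nothing is read from a count of 0 in lists of this size. There were 0 among 451 zinc finger genes, 0 among 43 replication-dependent histone genes, 0 among 22 genes of mitosis and sister chromatid cohesion, of which 19 had a ratio below 0, and 0 among 20 interferon-stimulated genes, of which 2 were below 0. Among 18 genes of hypoxia and glycolysis 0 were lowered, while 16 had a ratio below 0 and the median was -0.32. The lists of DNA replication (20 genes), YAP and TEAD targets (12), amino acid and unfolded protein response (17), immediate early genes (13) and metallothioneins (6) also held 0 lowered genes.

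For the 23 lowered genes with several listed transcripts the difference could be divided among them. In 5 of them only 1 transcript was above 0. In the other 18, every transcript was lower after depletion in 13 genes, and at least 1 was higher in 5. These genes were chosen for a lower sum, so nothing is read from a shared direction of their transcripts. TGM2 had transcripts at 61.4 and 27.7 FPKM and at 10.2 and 6.09 in siControl and siSNRNP40, and those of 10-Sep were at 28.6 and 17.0 and at 26.6 and 8.72. In these 2 genes both transcripts shared the direction.

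PTBP3 differed in that its transcripts were unequal. The most expressed of them was at 6.21 FPKM in siControl and 0.0027 in siSNRNP40, whereas the next was at 5.42 and 4.80, and the leading transcript held 68.6% of the gene's fall. FOLR1 had 1 transcript at 1.29 FPKM that was at 0.00018 after depletion and another at 0.974 and 0.994. LOC100131626 had 1 transcript at 2.40 that was listed at 0 after depletion and another that was higher, at 1.01 and 1.59. Transcript values rest on how fragments shared by overlapping transcripts were assigned, and the part of that assignment in the near-0 values was not tested.

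**Figure D5:**
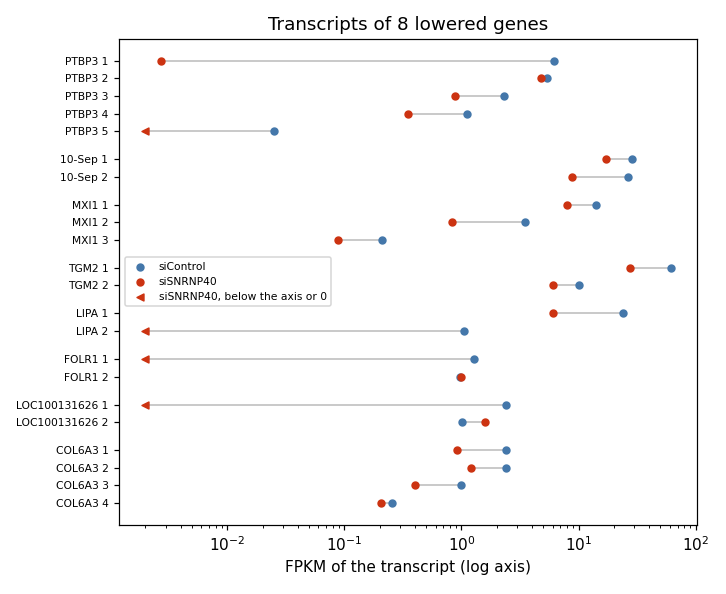
FPKM of each transcript above 0 of 8 lowered genes with control siRNA (blue) and siSNRNP40 (red) on a log axis, numbered by control value within a gene; arrows mark siSNRNP40 values of 0 or below the axis. The transcripts of TGM2, 10-Sep, MXI1 and COL6A3 were all lower, while the leading transcript of PTBP3 was at 0.0027 FPKM beside another at 4.80.

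The structure of the protein-coding genes was compared with that of all genes by medians, without a test. For the 44 protein-coding members that are neither small RNAs nor read-through genes, the canonical transcript had a median of 7 exons, 2696 bases, a 3' UTR of 1266 bases and 47.5% G and C, and spanned 28511.5 bases of the genome. For the 11087 such genes that passed the filter the medians were 9 exons, 3341 bases, 1353 bases and 47.3%, with a span of 28261 bases. The 53 raised ones had 6 exons, 2321 bases, 899 bases and 51.9%. None of the 44 had a single exon.

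Sites for the siRNA seeds in 3' UTRs were counted as a feature that the choice of genes did not use; the seed is the stretch of a guide that can pair with transcripts other than the target. Of 43 lowered protein-coding genes other than SNRNP40 with a 3' UTR of at least 20 bases, 11 (25.6%) held the 7 bases that pair with the seed of either siRNA, ATGATAT or GACTGAT, against 10 of 50 raised genes (20%) and 2106 of 11055 genes in all (19.1%). By siRNA, 7 of the 43 (16.3%) held the site of siSNRNP40 #1 and 8 (18.6%) that of siSNRNP40 #2, where 12.3% and 8.90% of all genes did. The median 3' UTR was 1276 bases in the lowered, 940 in the raised and 1357 in all of these genes. A match is a description of letters and not a site of action, and the 2 siRNAs cannot be separated in the pooled values.

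The sites in 4 of the most expressed of these genes are printed with 8 bases on either side, the 7 paired bases in capitals, on the strand of the gene in GRCh37. They are LIPA (chr10:90973863-90973885), IDI1 (chr10:1086585-1086607), EIF1AX (chrX:20146295-20146317) and ENPP1, which held a site for each siRNA (chr6:132212929-132212951 and chr6:132214933-132214955).
LIPA, siSNRNP40 #2: gctttgaaGACTGATacactcaa
IDI1, siSNRNP40 #1: gaaattaaATGATATggacccta
EIF1AX, siSNRNP40 #2: ttaaagcaGACTGATttgtttct
ENPP1, siSNRNP40 #1: ctctgtatATGATATttttttca
ENPP1, siSNRNP40 #2: gcaaaagtGACTGATctctactc

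The other genes with a site were ADAM28, BMPR2, C14orf129, MLLT11, PTBP3, SLC4A8 and STK17B, and 4 of the 11 held a site for both siRNAs. SCD, TGM2, NNMT and 10-Sep were among the 32 without one. The longest run that any of the 43 transcripts shared with a printed siRNA strand was 10 bases for siSNRNP40 #1 and 8 bases for siSNRNP40 #2, against 13 and 12 among all 11055 genes.

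Promoters, taken from RefSeq (GRCh38.p14) as 250 bases before to 50 after the gene start, were present for 37 of the 44 protein-coding members. The motif CCAAT, searched on both strands, was in 14 of the 37 (37.8%), 37.5% of 9148 promoters of genes that passed the filter and 35.7% of all 27305 promoters of the table. CACGTG was in 2 (5.41%) of the 37, 10.3% of those that passed and 7.43% of the whole table. TCACNCCAC, a form of the sterol regulatory element, was in 0 of the 37, 1.17% and 1.15%, which says only that these letters are not in these windows.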

How the data were processed

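The deposited table held cuffdiff output for transcripts. Per the labels and the study's methods, cutadapt 1.2.1 was used for trimming, TopHat2 2.0.8 for mapping to hg19, and Cufflinks, cuffmerge and Cuffdiff 2.0.2 for assembly and comparison. The FPKM values the authors deposited are 1 per transcript and condition, with the 2 libraries of a condition pooled. No counts are given, so depth is unknown and no interval or test was made of a level or a ratio. A 95% interval was calculated only for the shares of genes with a seed site. The table's columns of fold changes, test statistics, p-values, q-values and significance calls hold the authors' own comparison and were not used.

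The FPKM of all transcripts under 1 gene symbol were added up, without a pseudocount or scaling. Genes of GRCh37 came from GENCODE 44 mapped to that build, by symbol, older symbol and overlapping position, which matched 74 of 81 lowered genes and 12041 of 12334 in all. Seed sites were searched on the guide taken as the reverse complement of the printed strand, which may not be the whole guide. Calculations used Python 3.11.15, pandas 2.3.3, numpy 2.4.6 and scipy 1.17.1. The code of the rule was run on simulated sums with known folds and no noise. That run checks the code alone and gives no error rate of the rule.

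The members and the gene lists were chosen with earlier results of these data known, and the roles by which members are grouped after their values were seen. The genes named with both values are SNRNP40, the 15 lowest ratios, the 15 highest control values, members of a list and the genes next to the limit, and the rest are members that may be named. The values of 1 member are not reported here. The alternatives changed the filter, pseudocount, log base, scaling, summing, seed site and gene span.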

Additional observations from a re-analysis of the deposited data

How the results depend on the processing

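The number of lowered genes, 81, followed the filter and the limit. It was 834 without a filter on the mean, 385 with a mean of at least 0.1 and 24 with a mean of at least 5, 30 with a pseudocount of 1, 22 with a limit of -1 on the natural log scale and 184 with the most expressed transcript in place of the sum. Of the 81 genes, 26 were among the 30, 22 among the 22 and 70 among the 184. It was 83 after centring on the median ratio, 85 with genes at 0 after depletion, 81 with chromosomes 1 to 22, X and Y and 81 with each chromosome of a symbol apart. Scaling by the upper quartile gave 104 lowered and 76 raised genes in place of 81 and 100, so the lowered share of both went from 44.8% to 57.8%, and 79 of the 81 were among the 104. The median log2 ratio of the 81 genes was -1.23, and -0.848 with a pseudocount of 1. The ratio of SNRNP40 was -2.72, and -2.54 with a pseudocount of 1. The share with a seed site, 25.6%, was 53.5% for 6 bases and 9.30% for 7 bases followed by an A, where 48.3% and 5.69% of all genes had one, and 32.6% for the whole transcript, where 31.8% of all genes had one against 19.1% in the 3' UTR. The median gene span was 35312 bases in the deposited loci, which can join neighbouring genes, and 15888.5 bases in the annotation. All genes had 32872.5 and 31359, so the lowered genes were above them by the deposited span and below them by the annotated one. These spans include small RNA genes, which were 24.7% of the 81 and 2.46% of all genes. For protein-coding genes other than small RNAs and read-through genes, the canonical transcript spanned a median of 28511.5 bases in members and 28261 in all. A count or span within 1.5 times, or a log2 value within 0.1, was taken as about the same. For the seed share the limits were its 95% interval, 14.9% to 40.2%. In all, 9 of 20 alternatives left their value about where it was. The other 11 moved it, and 0 changed the sign of a log2 ratio. Those ratios belong to genes chosen for a ratio below -1, so nothing is read from the unchanged sign. The balance of lowered and raised genes turned under upper-quartile scaling. No paired analysis was possible because each condition is 1 pooled column.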

Other observations

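A few genes with a mean of at least 1 FPKM were listed at 0 in a condition, which the choice of genes left out. After SNRNP40 depletion 4 small RNA genes were listed at 0: SNORD48, SNORA37, MIR486 and VTRNA1-2, a vault RNA, with 3.63, 2.13, 2.46 and 2.37 FPKM in siControl. In the other direction MIR3652 was listed at 0 in siControl and at 27.3 FPKM in siSNRNP40. No fold is given for them. Below the limit on level, a further 6 genes had a mean of 0.9 to 1 FPKM and a log2 ratio below -1.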
